A study of Zea mays with 7 samples.

Results

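The lost bins are 1 kb bins of maize chromosome 2 that carried small RNA coverage in B73 and in mop1 heterozygotes and almost none in mop1 homozygotes. The coverage of each library over chromosome 2 was summed in bins of 1 kb, as the depth of each interval times its length, and scaled to 1000000 per library, which gives the scaled units used throughout. A bin was lost when it held at least 10 scaled units in both B73 and both heterozygous libraries and at most 2 in both homozygous libraries. By this rule 1149 of 243684 bins were lost, which is 0.472% of the chromosome. Of the 7373 bins that reached 10 in B73 and the heterozygotes, 15.6% were lost, 2395 (32.5%) stayed at 10 or more in both homozygous libraries and are called kept, and 3829 lay between. The coverage values themselves chose these bins, so the loss in homozygotes is described and not tested.

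Small RNAs were recovered from immature ears by RNA immunoprecipitation (RIP), in which an antibody pulls down a protein with its bound RNA, and were sequenced from 3 genotypes with 2 biological replicates each. B73 is the reference inbred line and carries a neutral allele of b1, while the heterozygotes (Mop1-1/mop1-1, called Mm) and the homozygotes (mop1-1/mop1-1, called mm) carry the mop1-1 mutation in stocks with the B' epiallele of b1. Mm against mm therefore compares doses of mop1-1 within one kind of stock, whereas in Mm against B73 the mutation and the genetic background cannot be told apart. A single library labelled ago104 completes the set, without an allele, a zygosity or a first replicate in its labels. The study names an AGO104 antibody, while the labels list AGO104 and AGO105 together for every library. No ear marker could be looked for in small RNA coverage of 1 chromosome, so the tissue label was not checked.

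In RNA-directed DNA methylation, RNA polymerase IV transcribes transposons and other repeats, and an RNA-dependent RNA polymerase makes the transcripts double-stranded. In maize that polymerase is encoded by mop1, the counterpart of RDR2 in Arabidopsis. A Dicer enzyme cuts the product into short interfering RNAs, and Argonaute proteins of the AGO4 clade, to which AGO104 belongs, bind them and guide methylation to matching DNA. In maize this pathway is known for its activity near genes and for its part in paramutation at b1.

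Summed coverage on chromosome 2 ran from 16527940 base-depth units in mm replicate 1 to 80390824 in B73 replicate 2, from 936656 and 4431623 alignments. The ago104 library was deeper, with 20104173 alignments. One alignment was worth 1.07 scaled units in mm replicate 1 and 0.574 in mm replicate 2, so the limit of 2 scaled units stood at 1.87 and 3.48 alignments. At 3 alignments, the number that a count of 0 still allows, the 2 mm libraries would read 3.20 and 1.72 scaled units. At most 33 covered bases, or 1 or 2 short alignments, were left in a lost bin in mm replicate 1, and a residual level below this floor was not detectable at this depth. The lower limit of 10 scaled units stood at 27.8, 44.3, 15.6 and 14.2 alignments in B73 replicates 1 and 2 and Mm replicates 1 and 2.

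The lost bins had a median of 16.05 scaled units in B73 replicate 1 and 13.6 in B73 replicate 2, of 22.01 and 20.3 in the Mm replicates, and of 1.03 and 0.975 in the mm replicates. The mean of these library medians was 14.8 ± 1.75 for B73, 21.1 ± 1.23 for Mm and 1.00 ± 0.0378 for mm (SD, n = 2 libraries each). The rule kept mm at 2 or below and B73 and Mm at 10 or above, and the mm medians stood at 1 and 2 alignments. The SDs of this paragraph therefore do not measure how well replicates agreed. In bulk ears, fewer cells of a type and less RNA per cell cannot be told apart. Summed over the lost bins, 52540 and 68567 alignments lay there in B73, 41418 and 34192 in Mm, and 820 and 1793 in mm. The lost bins held 1.91% ± 0.238 of the chromosome's coverage in B73, 2.74% ± 0.177 in Mm and 0.0962% ± 0.0105 in mm (SD, n = 2 libraries each). In log2(scaled units + 1), the mean of mm lay below the mean of the B73 and Mm libraries by a median of -3.46, from -5.37 to -2.16 across the lost bins. For comparison, the median was -2.60 in the bins between and 0.32 in the kept bins.

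**Figure D1:**
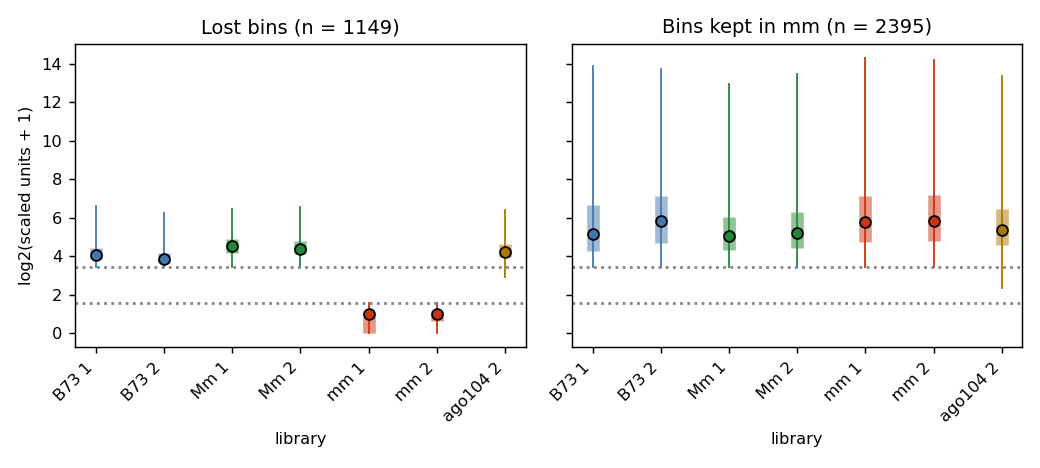
Coverage per 1 kb bin by library, in the lost bins (left) and the bins kept in mm (right), as log2(scaled units + 1). Dots are medians, thick bars the quartiles and thin lines the range over bins, with dotted lines at 10 and 2 scaled units. Both mm libraries sit near 1 scaled unit in the lost bins, while the ago104 library has a median of 18.1 there.

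Little separated the lost bins from their neighbours at either limit. The 5 lost bins with the lowest value in B73 or Mm held 10.0011 to 10.0136 scaled units, and the 5 bins next outside held 9.9887 to 9.99875. Inside the upper limit the 5 highest mm values were all 1.99662, and the 5 next outside ran from 2.0151 to 2.05712. There were 257 lost bins whose lowest B73 or Mm value was under 11, and 345 bins met the mm limit with a lowest value of 9 to under 10. Another 1035 bins met the lower limit with a highest mm value over 2 and up to 3. In mm replicate 1 378 lost bins held no coverage (32.9%), and in mm replicate 2 181 held none (15.8%). Both were empty in 70 bins, and 540 had at most 1 alignment in each mm library. The shallow mm replicate 1 set much of the count, which rose to 2717 when that library was left out.

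Bins chosen by the rule on 1 replicate of each genotype could be read in the other replicate. When the rule was applied to replicate 1 of each genotype alone, it chose 2553 bins. In replicate 2 these held a median of 17.4 scaled units in Mm and 1.17 in mm, a median log2 difference of -3.10 with quartiles of -3.69 and -2.51. Coverage was lower in mm than in Mm in 2549 of them (99.8%), 74.7% were at 2 or below in mm, and 2 bins were at 10 or above. Over the 9461 bins that passed the same minimum in B73 and Mm replicate 2, the median was -1.89, 64.8% were lower in mm and 31.6% were at 2 or below. Choosing on replicate 2 gave 2985 bins, with a median of -3.11 in replicate 1 and lower coverage in mm in 2984 bins, against -2.29 and 78.3% over 9770 bins. Only 43.7% of them were at 2 or below in the shallower mm replicate 1, against 26.1% over the 9770. Each reading rests on 1 library a genotype and is a description.

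The lost bin with the highest mean over B73 and Mm, at chr2:223540001-223541000, held 98.1 and 75.8 scaled units in B73, 63.5 and 64.5 in Mm, and 0 and 1.69 in mm. Its centre lay 7121 bases from PER66, a gene of the class III peroxidase family, and the bin held 39.1 scaled units in the ago104 library. Here both B73 libraries were above both Mm libraries, which was not the usual order among the strongest bins. The bin at chr2:42250001-42251000 held 40.4 and 37.2 scaled units in B73, 85.5 and 93.1 in Mm, 1.09 and 0.618 in mm, and 59.1 in the ago104 library. Both mm values there stand for 1 alignment each, where the Mm libraries had 118 and 108. The centre of the bin at chr2:67446001-67447000 lay 5881 bases from hcf106, which encodes a component of the thylakoid Tat protein import system. This bin held 58.2 and 40.8 scaled units in B73, 56.04 and 59.1 in Mm, 1.15 and 1.17 in mm, and 65.8 in the ago104 library.

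The 10 bins with the highest mean otherwise lay at chr2:226821001-226822000, chr2:214878001-214879000, chr2:233630001-233631000, chr2:11501001-11502000, chr2:211857001-211858000, chr2:217438001-217439000 and chr2:120010001-120011000. In 7 of the 10 both Mm libraries were above both B73 libraries, and in the bins at 223540001 and 211857001 the order of the means was the reverse. The bin at 211857001 held 83.9 and 63.7 scaled units in B73, 43.3 and 39.0 in Mm, 1.51 and 0 in mm, and 22.1 in the ago104 library, so that there B73 was above Mm without overlap. The bin at 226821001 held 41.6 and 43.2 scaled units in B73, 83.4 and 69.7 in Mm, 1.21 and 1.79 in mm, and 61.9 in the ago104 library. Its centre lay 25086 bases from the nearest protein-coding gene. The centre of the bin at 214878001 lay 334 bases from the gene LOC100284908, so the gene reached into the bin. The bin at 214878001 held 59.1 and 43.3 scaled units in B73, 66.0 and 69.3 in Mm, 1.09 and 0.520 in mm, and 59.5 in the ago104 library. In both, Mm and B73 did not overlap, and the ago104 library lay between the lowest and the highest of the 4. The bin at 233630001, with its centre 703 bases from LOC103648099, held 43.6 and 38.0 scaled units in B73, 82.3 and 73.2 in Mm, 0 and 1.11 in mm, and 46.8 in the ago104 library. None of the 10 bins exceeded 3 alignments in an mm library.

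**Figure D2:**
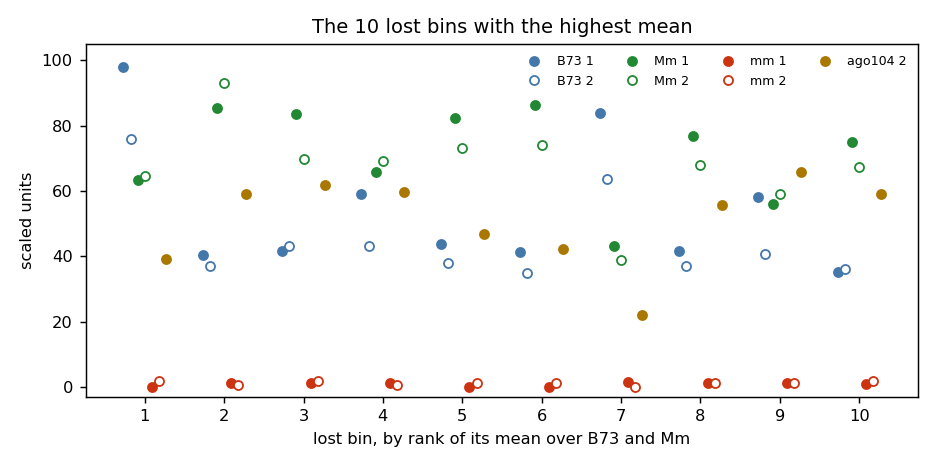
Scaled units of the 10 lost bins with the highest mean over the B73 and Mm libraries, by rank, with 1 point per library (filled for replicate 1 and for the ago104 library, open for replicate 2). Red mm points lie at the bottom in all 10 bins, and B73 lies above Mm in the bins ranked 1 and 7.

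Coverage of the lost bins was spread over many short stretches in B73 and Mm. Covered bases had a median of 280 and 335 per bin in B73 and 241 and 224 in Mm, against 17 and 20 in mm, about the length of 1 alignment. The bins between were close to the lost bins, with medians of 302 and 357 in B73 and 263 and 242 in Mm. The kept bins were covered over fewer bases, with medians of 176, 219, 152 and 133 in the B73 and Mm libraries, although their median coverage was higher, at 32.2 to 55.8 scaled units. A lost bin had a median of 8 to 10 separate covered stretches in a B73 or Mm library, and the deepest stretch held a median of 43.5% to 46.3% of its coverage. In the kept bins the deepest stretch held 74.2% to 90.2%. Stretches were not counted in the bins between. Depth per covered base had a median of 3.04 and 3.399 in B73 and 2.70 and 2.46 in Mm in the lost bins, and 5.98 to 20.8 in the kept bins. In the bins between it was 3.38 and 3.86 in B73 and 2.90 and 2.65 in Mm, so this trait was not particular to the lost bins.

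Replicates covered many of the same bases of the lost bins. Of the bases covered in B73 replicate 1, 71.5% were also covered in B73 replicate 2, and of those in Mm replicate 1, 58.3% were also covered in Mm replicate 2. The few bases left in mm overlapped those of the other genotypes. In mm replicate 1, 62.3% of its covered bases were covered in B73 replicate 1, 68.7% in B73 replicate 2 and 59.0% in Mm replicate 1, where these libraries covered 28.1%, 33.5% and 24.7% of all bases of the bins. For mm replicate 2 the shares were 50.9%, 57.0% and 46.6%. The 2 mm libraries shared 9.36% of the bases of mm replicate 1. Together the B73 and Mm libraries covered 49.5% of the bases of the lost bins.

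The rule had no limit on the length of the aligned stretches, although length enters the value of a bin. Isolated intervals, which are covered stretches of even depth that touch no other, show the length of an alignment directly. They hold an unequal part of each library. In the lost bins their summed depth was 5453 beside 52540 alignments in B73 replicate 1 and 4998 beside 41418 in Mm replicate 1. In mm replicate 1 it was 777 beside 820. The length shares below are shares of this isolated depth and not of all coverage. The reads had been trimmed, and an interval shows the aligned length as deposited, which was mostly 16 to 21 bases and cannot be read as the length of the small RNA in the ear. Intervals of 19 bases made up 49.1% and 48.8% of the isolated depth in the lost bins in B73 and 49.4% and 51.9% in Mm. In all other bins of the chromosome the share was 39.9% and 39.0% in B73 and 40.6% and 40.6% in Mm, and in the kept bins it was 26.1% to 29.1%. The bins between, which passed the same minimum in B73 and Mm, were nearer to the lost bins, with 45.8% and 43.2% in B73 and 46.3% and 47.5% in Mm. Against all other bins the lost bins were higher in all 4 libraries, by 9.77 percentage points ± 1.08 (SD, n = 4 libraries, range 8.79 to 11.3). A two-sided exact permutation test that flips the sign of the difference within each library gave p = 0.125, the smallest value that 4 libraries allow, or 0.188 after Benjamini-Hochberg adjustment over 6 lengths. Against the bins between, a comparison added after the values were seen, the difference was smaller, at 4.12 percentage points (range 3.07 to 5.65, higher in 4 of 4 libraries, exact permutation p = 0.125).

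Shorter intervals were less frequent in the lost bins. The share of 16 bases was lower than in other bins by -6.06 points and that of 17 bases by -6.00 points, each in 4 of 4 libraries, while 20 bases was higher by 1.69 points in 4 of 4 (exact permutation p = 0.125 each). For 18 bases the difference was 0.27 points and for 21 bases 0.012 points, with 2 libraries in each direction (exact permutation p = 0.875 each). An interval of more bases adds more to the value of its bin, and the mm limit removes bins rich in the 16- and 17-base intervals that made up most of the isolated depth of mm elsewhere. The part of either in the difference was not tested. In bins chosen on replicate 1 alone, the 19-base share was 47.7% in B73 replicate 2 and 50.4% in Mm replicate 2, against 38.9% and 40.5% in other bins.

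What remained in mm had a different make-up. In mm replicate 1, 19 bases made up 30.6% of the isolated depth in the lost bins (773 intervals) and 14.3% in other bins. In mm replicate 2 the shares were 19.1% (1556 intervals) and 10.9%. The bins between had 30.8% and 17.98% in the 2 mm libraries, close to the lost bins. Intervals of 16 and 17 bases together with those of 18 bases took up most of the rest. By isolated depth, the mm libraries were thus below B73 and Mm in the 19-base share in the lost bins and in the other bins. Lengths were also read over all alignments, by pairing rises and falls of depth in order. The 19-base share in mm replicate 1 was then 31.1% in the lost, 18.2% in the other and 22.1% in the kept bins. In mm replicate 2 it was 18.9%, 17.9% and 23.1%, with the kept bins above the lost bins. B73 had 20.1% and 18.7% in the kept bins by this reading, so mm was not below B73 there.

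**Figure D3:**
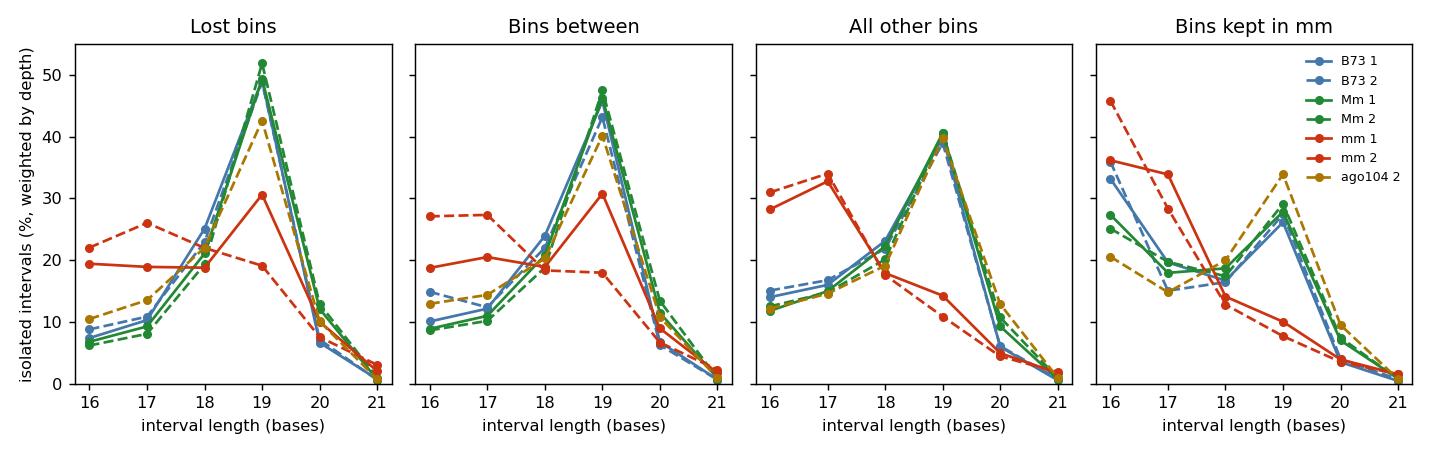
Share of isolated intervals of 16 to 21 bases (%, weighted by depth) by length, for each library, in the lost bins, the bins between, all other bins and the bins kept in mm. Solid lines are replicate 1 and dashed lines replicate 2, and the ago104 library is in brown. The 19-base peak of B73 and Mm reaches 48.8% to 51.9% in the lost bins and 43.2% to 47.5% in the bins between, and the mm libraries have no such peak in the other bins or the kept bins.

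The ago104 library, which the rule did not use, had coverage in every lost bin. Its median was 18.1 scaled units, from 6.50 to 84.3, and 1126 lost bins (98.0%) reached 10 while none was at 2 or below. The same held among all bins that reached 10 in B73 and Mm, of which 97.8% did so in the ago104 library and none was at 2 or below. The lowest value was at chr2:218510001-218511000, where B73 held 13.8 and 13.9 and Mm 10.2 and 10.95 scaled units, and the highest was at chr2:26891001-26892000, where B73 held 27.4 and 19.9 and Mm 55.9 and 35.1. Relative to the B73 mean, the ago104 library was higher by a median of 0.25 on the log2 scale, and it lay above both B73 libraries in 761 lost bins (66.2%) and below both in 132. Relative to Mm it was lower by a median of -0.23, below both Mm libraries in 676 bins (58.8%) and above both in 142. The bins between gave 0.30 and -0.19, and the kept bins -0.26 and 0.12. With 1 library, these differences have no replicate check.

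In the ago104 library, 91.3% of the bases that Mm replicate 1 covered in the lost bins were covered, at a depth of 20104173 alignments against 1555520. In the kept bins the same overlap was 87.9%, and the ago104 library covered 58.0% of all bases of the lost bins. Its 19-base share was 42.6% in the lost bins, 39.7% in other bins and 33.9% in the kept bins. The difference between lost and other bins, 2.85 percentage points, was below the range of 8.79 to 11.3 in the B73 and Mm libraries. The isolated depth of the ago104 library in the lost bins was 7217 beside 400514 alignments, so these shares describe little of its coverage. Its depth differs from theirs as well, and the part of either in this was not tested.

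The rule set no difference between Mm and B73, but its minimum of 10 in all 4 libraries limits how far they can differ. The difference was tested with limma on log2(scaled units + 1) over 27233 bins with a mean of at least 5, with Benjamini-Hochberg adjustment. Of the 1149 lost bins, all of which were tested, 2 (0.174%) passed an adjusted p of 0.05, both higher in Mm, where 5.91% of all bins tested passed, 2.82% higher and 3.09% lower in Mm. The bins tested had to pass only a mean of 5, so nothing is read from the lower share among the lost bins. At an unadjusted limma p under 0.05 there were 125 of the 1149 lost bins, and 6409 of the 27233 bins tested. The median difference was 0.47 in the lost bins and 0.42 over all bins tested, so that most of the shift was shared with the rest of the chromosome. Under a median-ratio scaling the medians were 0.14 and 0.09, and with the top 1% of bins left out of the scaling sum they were 0.18 and 0.13. Both Mm libraries were above both B73 libraries in 780 lost bins (67.9%, against 48.4% of all bins tested and 66.2% of the bins between) and below both in 31 (2.70%, against 15%).

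One of the bins that passed, at chr2:240945001-240946000, held 14.8 and 13.4 scaled units in B73 and 58.9 and 48.3 in Mm. Its log2 difference was 1.85 (SE 0.377, limma adjusted p = 0.0302). The other, at chr2:9312001-9313000, held 14.9 and 10.8 scaled units in B73 and 45.8 and 41.6 in Mm, with a log2 difference of 1.70 (SE 0.375, limma adjusted p = 0.0375). Both calls were lost under either other scaling, and with Mm replicate 1, Mm replicate 2 or mm replicate 2 left out. These bins were chosen for naming after their values were seen. For mm against Mm, which the rule used, the same fit called all 1149 lost bins lower, where 49.1% of all bins tested were called lower, and nothing is read from that count.

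Across the lost bins, Spearman's rho was 0.735 between the B73 libraries, 0.725 between the Mm libraries and 0.539 between B73 and Mm replicate 1, over 1149 bins that share libraries and a common minimum. These values describe how far the order of the bins was the same between libraries.

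Median coverage was lower in the bins beside a lost bin. In the bins directly before the lost bins, the median was 3.73 and 3.38 scaled units in B73, 4.80 and 4.16 in Mm, and 1.15 and 1.14 in mm. At 5 kb before the lost bins, the Mm libraries had 2.59 and 2.18 scaled units and the mm libraries 1.03 and 0.650. Thus the Mm median fell from over 20 to below 5 within 1 kb, while the mm median stayed near 1. The rule set its limits at the lost bin only, so a peak there in B73 and Mm follows in part from the choice. In Mm replicate 1, 26.5% of the bins directly before and 27.9% of those directly after a lost bin held 10 or more. Of the 2200 bins directly beside a lost bin that were not lost themselves, 257 (11.7%) reached 10 in B73 and Mm, of which 199 were bins between and 58 were kept. Beside the kept bins, with neighbours that were kept themselves left out in the same way, the share was 267 of 4159 (6.42%). Kept bins touched another kept bin more often, as given next, so these shares are not on equal terms.

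**Figure D4:**
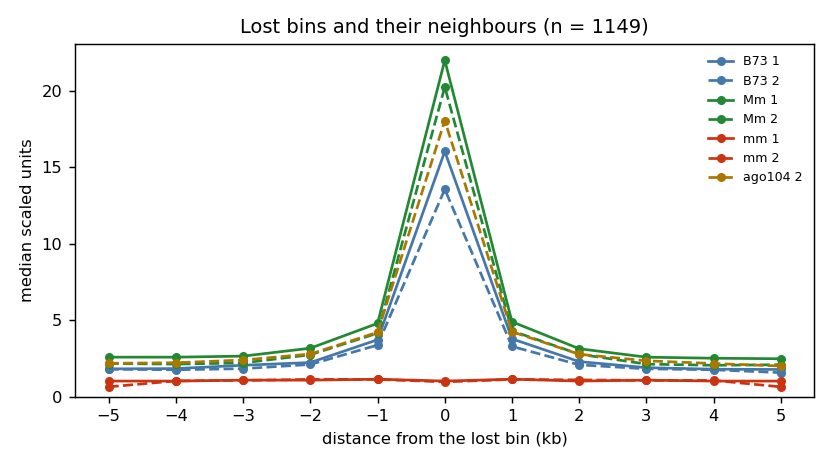
Median scaled units of the lost bins (0) and of the bins up to 5 kb to each side, by library (solid for replicate 1, dashed for replicate 2 and for the ago104 library). B73, Mm and the ago104 library peak at the lost bin, with medians of 13.6 to 22.01, and drop below 5 in the next bin, while both mm libraries run near 1 throughout. The rule set limits for B73, Mm and mm at 0 only, so their values there follow from the choice of bins.

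Lost bins formed 1108 runs, of which 1068 were single bins, 39 were pairs and 1 was a run of 3, so that 81 lost bins (7.05%) touched another. Among the 2395 kept bins 18.3% touched another kept bin, and among the 3829 bins between 19.1% touched another of their kind. The median distance to the nearest lost bin was 51 kb, against 23 kb among the kept bins and 8 kb among the bins between. Both of these sets are more numerous, and distance and contact depend on number. There were 262 lost bins (22.8%) with another within 10 kb. The run of 3 lay at chr2:208540001-208543000, with the centre of its first bin 2022 bases from sm2, a gene of maysin synthesis in silks. Its bins held 13.1, 25.3 and 12.7 scaled units in B73 replicate 1, 22.2, 38.0 and 16.3 in Mm replicate 1, and 1.15, 1.15 and 1.09 in mm replicate 1. The middle bin was the highest in each B73 and Mm library.

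Lost bins occurred along the whole chromosome. There was a median of 4 per Mb and 10 of 244 Mb had none. The highest number was 17, between 237 and 238 Mb, where 67 bins reached 10 in B73 and Mm. By segments of 10 Mb, lost bins made up 8.97% (120 to 130 Mb) to 21.3% (110 to 120 Mb) of the bins that reached 10. The longest stretch with no lost bin was 2179 kb, at chr2:223676001-225855000, and held 66 bins that reached 10, of which 35 were kept.

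Neither the b1 repeats nor mop1 lay in or beside a lost bin. The tandem repeats upstream of b1, which control its paramutation, were placed at chr2:19761251-19767221 of the deposited coordinates by their period in the coverage, and no bin over them was lost. Those bins held 0.952 to 6.75 scaled units over all 6 libraries of the 3 genotypes, with B73 and Mm below the minimum of 10. The nearest lost bin, at chr2:19833001-19834000, had its centre 66.3 kb away. Within 5 Mb of the repeats, 51 of 382 bins that reached 10 were lost (13.4%, against 15.7% elsewhere). The mop1 gene lay at 42157440 to 42163053, and the nearest lost bin was the strong one at 42250001, with its centre 87.4 kb away. Within 5 Mb of mop1, 58 of 346 were lost (16.8%, against 15.5% elsewhere).

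Lost bins were more often near genes than the chromosome at large. Of the lost bins, 479 (41.7%, 95% Clopper-Pearson interval 38.8% to 44.6%, which covers counting error only) overlapped a protein-coding gene or lay within 2 kb of one, against 35.2% of kept bins, 43.2% of bins between and 15.0% of all bins. Overlap with the gene itself was 18.3% in lost bins, 24.2% in kept bins and 9.98% in all bins. The lost bins were more frequent just outside genes, with 8.62% of bin centres at up to 500 bases from a gene, 9.31% between 500 and 1000 and 10.8% between 1000 and 2000, where all bins had 1.53%, 1.36% and 2.51%. The bins between had 8.78%, 9.19% and 10.2% in these classes, so this trait was not particular to the lost bins. The median distance of a bin centre to a gene was 4468 bases for lost bins, 3743 for bins between, 9904 for kept bins and 23497 for all bins. It was 5105 for all bins that reached 10 in B73 and Mm. Bins that reach 10 in B73 and Mm lie near genes in general, at 40.4%, so the lost bins were close to the set they were drawn from.

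**Figure D5:**
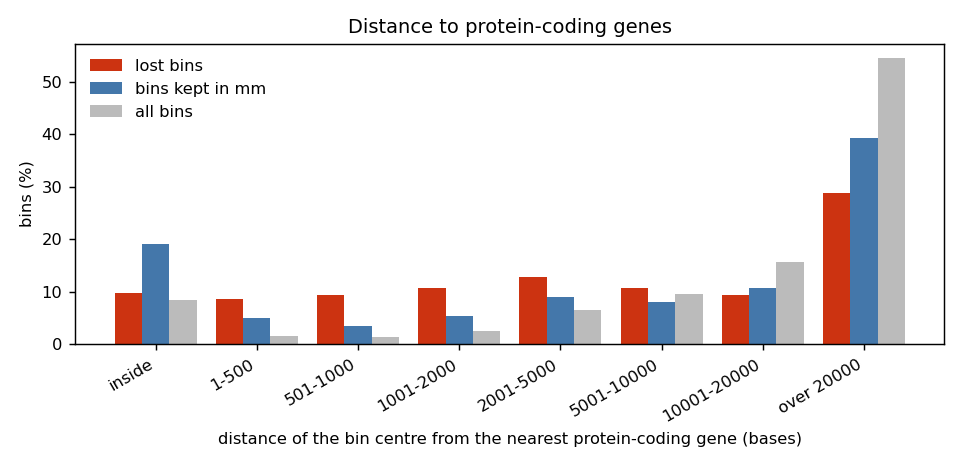
Share of bins (%) by the distance of the bin centre from the nearest protein-coding gene, in bases, for lost bins, bins kept in mm and all bins of the chromosome. Lost bins exceed both other sets in the 5 classes from 1 to 10000 bases, and kept bins exceed lost bins inside genes (19.2% against 9.66%). The bins between, which were close to the lost bins, are not drawn.

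Genes of structural RNAs overlapped kept bins more often than lost bins. No lost bin overlapped an annotated tRNA gene (0 of 1149, which allows up to 0.321%) or an rRNA gene, where 45 (1.88%) and 69 (2.88%) of the kept bins did. snoRNA and snRNA genes overlapped 1 lost bin and 34 kept bins (1.42%). Of the 3829 bins between, 12 (0.313%) overlapped a tRNA gene, 0 an rRNA gene and 1 a snoRNA or snRNA gene, so low numbers were not particular to the lost bins. Over all bins of the chromosome the shares were 0.0599% for tRNA, 0.0283% for rRNA and 0.0382% for snoRNA and snRNA genes, so the numbers among the lost bins were near those of the chromosome and the kept bins were above it. Of the 6 named tRNA genes with a lost bin within 2 kb, TRNAW-CCA had one at chr2:2516001-2517000, which held 12.0 and 17.2 scaled units in B73, 17.4 and 20.2 in Mm, and 0 and 0.553 in mm and did not reach the gene. TRNAM-CAU had 2 such bins, of which the one at chr2:230287001-230288000 held 20.5 and 13.3 scaled units in B73, 15.3 and 15.7 in Mm, and 1.15 and 0 in mm. The lost bin near TRNAA-CGC held 16.3 and 14.9 scaled units in B73, 26.9 and 20.5 in Mm, and 0 and 1.63 in mm. In these 3 bins B73 and Mm overlapped only near TRNAM-CAU. The lost bins near TRNAI-AAU, TRNAH-GUG and TRNAP-UGG held 12.2 to 22.4 scaled units in B73, 17.3 to 28.5 in Mm and 0.553 to 1.21 in mm.

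In all, 473 of 4090 protein-coding genes (11.6%) had a lost bin within 2 kb, 422 with 1 bin, 45 with 2 and 6 with 3. Of genes with a symbol, sfp7 had 3, of which 2 overlapped the gene. Its first, at chr2:165822001-165823000, held 21.05 and 17.2 scaled units in B73, 38.1 and 24.6 in Mm, 0 and 1.07 in mm, and 62.5 in the ago104 library, above all 4 B73 and Mm values. One end of mbd111, a gene for a methyl-CpG-binding domain protein, was overlapped by a lost bin at chr2:195873001-195874000, with 11.3 and 13.0 scaled units in B73, 15.8 and 17.1 in Mm, and 0.968 and 1.20 in mm. A lost bin also overlapped one end of IPP, at chr2:26069001-26070000, with 22.7 and 16.8 scaled units in B73, 18.8 and 31.2 in Mm, and 1.09 and 1.76 in mm. The lost bin near opr5, of the 12-oxo-phytodienoic acid reductase family, held 10.95 and 10.5 scaled units in B73, 18.3 and 14.4 in Mm, and 1.15 and 0.520 in mm. The lost bin near csu861 held 16.6 and 14.7 scaled units in B73, 15.4 and 21.5 in Mm, and 1.09 and 1.07 in mm, with B73 and Mm overlapping.

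In the ago104 library the 5 lost bins near sfp7, mbd111, IPP, opr5 and csu861 given here held 62.5, 13.4, 33.0, 11.4 and 15.7 scaled units. All were above the limit of 10.

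One lost bin overlapped a miRNA gene, MIR2118g, of a family that triggers phased small RNAs in grass anthers. The bin, at chr2:51328001-51329000, held 16.4 and 10.3 scaled units in B73, 14.1 and 20.6 in Mm, and 1.15 and 1.59 in mm. The hairpin itself, at 51328919 to 51329063, held 0.714 and 0.460 in B73, 0 and 0.725 in Mm, and 0 and 0.520 in mm. Nearly all coverage of this bin thus lay before the hairpin, outside the miRNA.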

How the data were processed

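The authors deposited coverage of chromosome 2 for 7 libraries, as the depth over each interval in whole numbers, not scaled to library size. Per the study, reads were trimmed with Trimmomatic and aligned with Bowtie 1.2.2 with mismatches allowed, and a read could be placed at several sites, so coverage of repeats is shared between copies. Whether the tables hold the alignment to B73 version 5 or to its composite with the B' repeats is not stated. tRNA, snoRNA and snRNA genes fitted the coverage without a shift before the b1 repeats and with one of 7855 bp beyond them, and RefSeq genes (Zm-B73-REFERENCE-NAM-5.0) were moved accordingly. Positions are those of the deposited tables, counted from 1. The 10 tables by length class name no sample and follow another build, and were not used.

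Bins of 1 kb were scaled to 1000000 per library. Depths are not read counts, so limma 3.58.1 (R 4.3.3) with a trend was fitted to log2(scaled units + 1), with 3 genotypes in one model. Lengths were compared over libraries. Python 3.11.15, numpy 2.4.6, scipy 1.17.1 and pandas 2.3.3 did the rest. The bin sums, interval lengths and limma fit were tested on simulated data. Alignments were counted from rises in depth. Bins named are the 10 with the highest mean, the longest run, those nearest b1 and mop1 and those nearest each limit. Genes named are up to 20 with a symbol other than a LOC number and a lost bin within 2 kb, by number of lost bins, of which 13 were found. The members and lists were chosen with earlier results of these data known. Alternatives changed thresholds, bin size, grid, scaling, pseudocount, filter, the value and the libraries.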

Additional observations from a re-analysis of the deposited data

Results flagged for a closer look

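The ago104 library stands outside the comparisons between genotypes, since its group has 1 library. In the lost bins it had a median of 18.1 scaled units, where the mm libraries had 1.03 and 0.975 and the B73 libraries 16.05 and 13.6.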

How the results depend on the processing

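The number of lost bins, 1149, followed the limits closely. It was 4415 with a lower limit of 5 and 124 with 20, 3664 with an mm limit of 5 and 70 with no coverage in mm. Bins of 0.5 kb gave 2184 and of 2 kb 467, with limits in proportion. With the top 1% of bins left out of the scaling sum it was 701, of which 696 were among the 1149, with median-ratio scaling 795 (762 shared), and with covered bases as the value 287 (61 shared). These top bins held 63.7% and 64.0% of the coverage in mm, 26.7% and 34.4% in Mm and 41.2% and 46.5% in B73. Leaving out 1 library gave 1175 to 2717. The calls between Mm and B73 were 2 lost bins, where 5.91% of all bins tested were called. They were 1 with a pseudocount of 0.5 (4.09% of all bins tested) and 30 with 5 (10.5%). With a filter of 10 they were 5 (929 lost bins tested, 9.60% of all). They were 0 with no filter (0.0215% of all), with median-ratio scaling (5.24%) and with the top 1% left out of scaling (4.21%). A replicate block also gave 2 (6.53% of all). With 1 library left out, the median log2 difference in the lost bins was 0.356 to 0.573. Deviations of same-numbered libraries had r = 0.228 (B73 and Mm), 0.0153 (Mm and mm) and 0.0430 (B73 and mm). Some deviation was thus shared between B73 and Mm and little with mm, and the main fit held no replicate block. The median log2 difference in the held-out replicate was -3.44 with a pseudocount of 0.5 and -2.76 with median-ratio scaling. The ago104 median was 14.9 with the top bins left out of scaling and 8.49 as covered bases. The share near genes was 18.3% for gene bodies and 52.3% within 5 kb. Lost bins touching another, 81, were 658 with an mm limit of 5 and 685 with a lower limit of 5. In the B73 and Mm libraries, the 19-base share was higher in the lost bins under all 10 alternatives, by 4.12 (against the bins between) to 22.2 percentage points. The mm libraries are not part of that count. With rises and falls of depth paired over all alignments, their difference from other bins was 13.0 and 0.951 points. The cause of these changes was not tested beyond what each setting alters by construction. Depth limited mm replicate 1 most, where 1 alignment was worth 1.07 of the 2 scaled units allowed. Coverage does not show which reads were placed at several sites.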
